A study of Mus musculus with 12 samples.

Results

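Chemokines, interleukins and their receptors were followed as a group in the RNA-seq data of mouse inguinal white adipose tissue (iWAT). The members were the genes whose symbol starts with Ccl, Cxcl, Cx3cl, Ccr, Cxcr, Cx3cr, Ackr, Xcr or Il followed by a digit. They numbered 91 of the 14159 listed genes, with 23 chemokine ligands, 16 chemokine receptors and 52 interleukins, interleukin receptors and binding proteins. A set of 20 members was kept apart as lymphoid-linked, meaning Cxcl13, Ccr7, Cxcr5 and further ligands and receptors known mainly from lymphocytes. The other 71 members formed the remainder. Of the 91 members, 78 averaged 10 or more normalized counts across the 12 libraries and were tested (19 lymphoid-linked and 59 others). The remaining 13 stayed below this level and were not tested in the main comparisons: Ccl17, Ccl3, Ccl4, Il10, Il11, Il13ra2, Il17c, Il1b, Il2, Il27, Il31ra, Il4i1b and Il5. Il6, Ccl19 and Ccl21a were not analysed here.

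Mice carried floxed Atf4 alleles, alone in the Atf4WT littermates and with Cre under the Adipoq (adiponectin) promoter in the Atf4AKO mice, which deletes Atf4 in adipocytes and leaves it in the other cells of the tissue. All were on the C57BL/6 background, and the age of the mice used for RNA-seq is not given in the sources used here. Each genotype was studied at room temperature (RT) and after 24 h of cold exposure, with 3 libraries of whole iWAT in each of the 4 groups (replicates 0, 1 and 2). In whole tissue, fewer cells of a type and less RNA per cell cannot be told apart.

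Chemokines are small secreted proteins that guide migrating leukocytes through G protein-coupled receptors, and interleukins act on cells through receptors that signal mainly by JAK-STAT or MyD88 routes. CXCL13 with its receptor CXCR5 draws B cells into follicles, and CCR7 brings T cells and dendritic cells into lymph nodes. The inguinal fat pad of the mouse holds the inguinal lymph node, and its stroma and resident macrophages are themselves sources of many chemokines.

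The libraries held 25719476 to 29105147 reads over the listed genes, of which the members took 0.0891% to 0.197%. Atf4 was at 4107 to 5669 normalized counts in Atf4WT iWAT at RT and at 5756 to 7644 after cold exposure, against 1469.7 to 1639 and 788 to 1578 in Atf4AKO iWAT. All 8 white adipocyte markers were listed, with a summed level of at least 624222 normalized counts in each library. Markers of other cells set some libraries apart. The 11 listed B cell markers of 12 summed to 4367, 9274 and 15389.7 normalized counts in the Atf4WT cold libraries, to 91.8 to 401 in the Atf4AKO cold libraries and to 4527 in replicate 2 of Atf4WT at RT, against 151 to 685 in the other 5 RT libraries. The 17 listed T cell markers of 20 summed to 1381, 8508 and 10055 in the Atf4WT cold libraries, against 321 to 1362 in the other 9. The 11 listed macrophage markers of 12 were lowest in replicate 1 of Atf4AKO after cold (5943) and replicate 1 of Atf4WT after cold (14979.6), against 26766 to 48852 in the other 10. The 4 listed skeletal muscle markers of 6 summed to 71116 in replicate 2 of Atf4WT at RT, 25612 in replicate 0 of Atf4WT after cold and 2681 in replicate 1 of Atf4AKO after cold, against 65.9 to 840.1 in the other 9, and their part in the results was not tested. No member is in these marker lists, and no listed gene is at 0 in any library. The heat map of the members shows the same libraries standing apart.

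**Figure D1:**
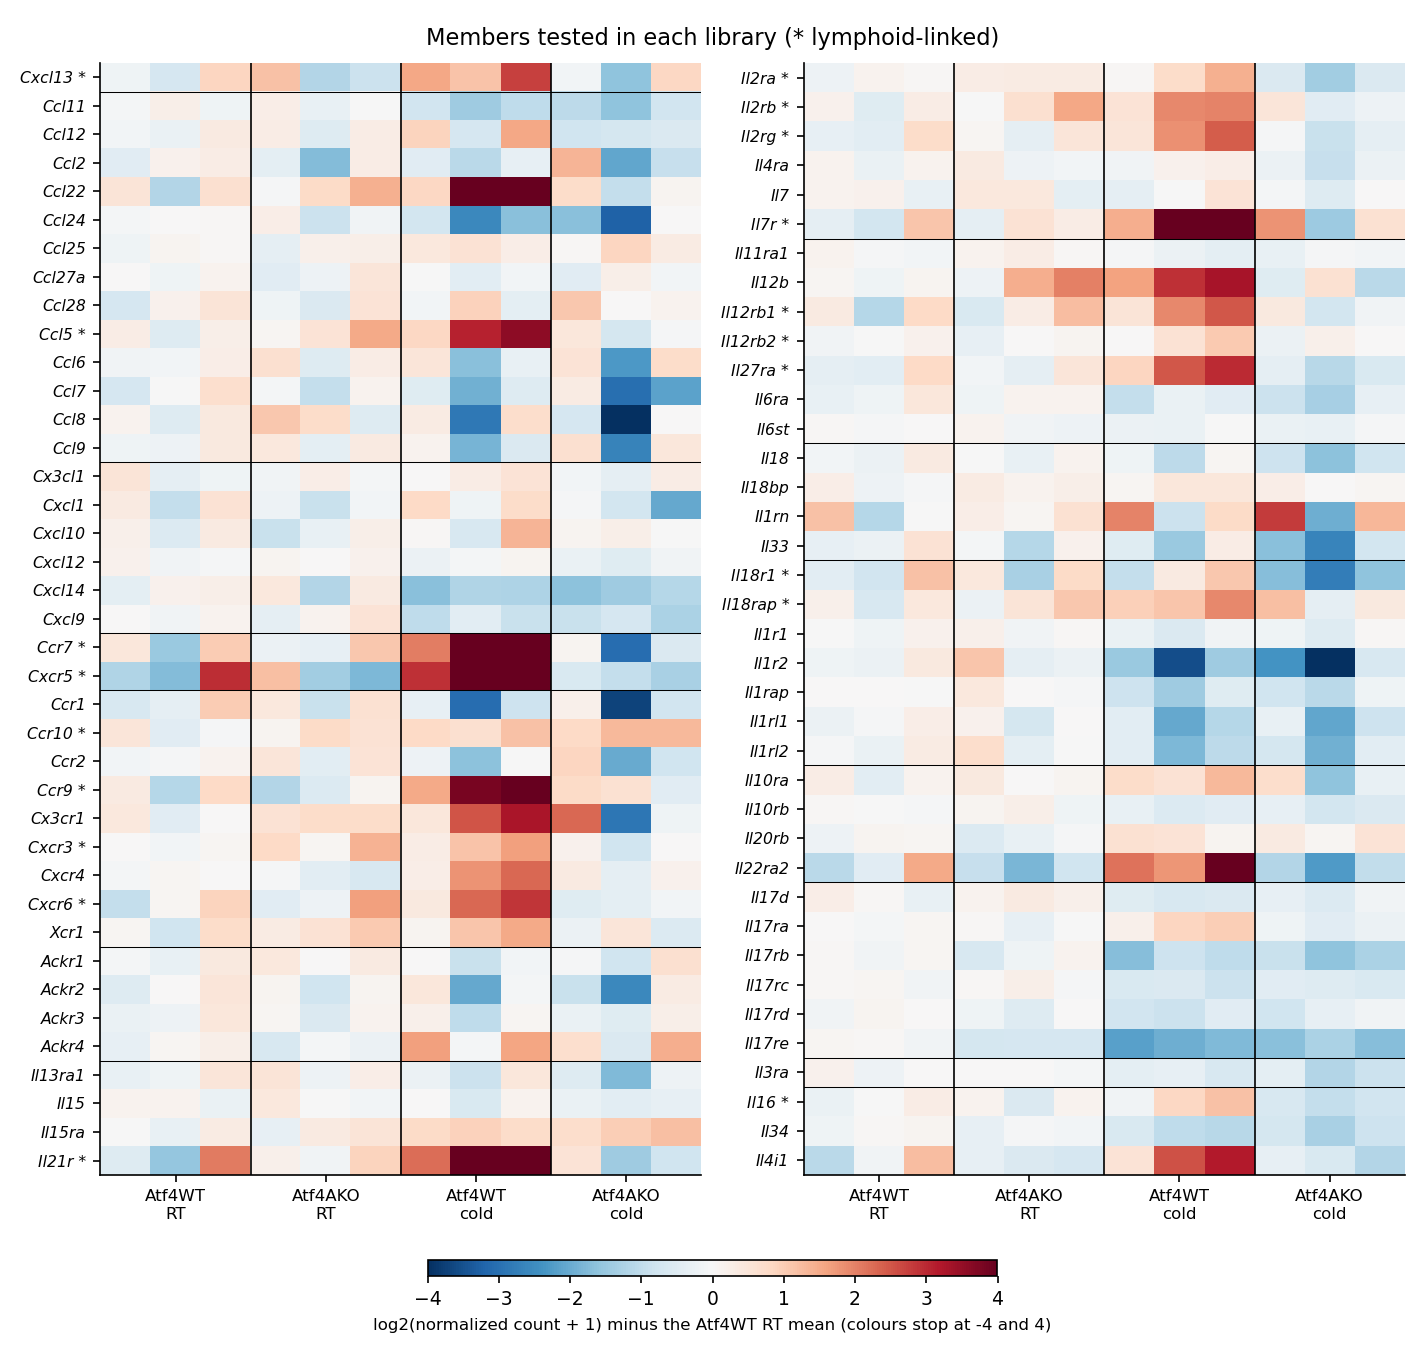
Rows are tested members, grouped by role (black lines), and columns are libraries, with replicates 0, 1 and 2 from left to right within a group. Colour gives log2(normalized count + 1) minus the mean of the 3 Atf4WT RT libraries, and asterisks mark the lymphoid-linked members, of which all 19 were highest in replicate 2 within the Atf4WT cold group and 17 were lowest there in replicate 0.

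In Atf4WT iWAT, cold exposure came with higher levels of lymphoid-linked members and lower levels of a set of tissue chemokines and IL-1 and IL-17 receptors. A member was taken to have risen or fallen where the fold was over 1.5 and the unadjusted p of limma under 0.05, the threshold the study used for differentially expressed genes. The p-values printed are limma's, adjusted with the Benjamini-Hochberg method over all 13404 genes tested. Differences are on the log2(normalized count + 1) scale, which understates changes of low genes. They are given ± their standard error. Of the 78 tested members, 36 passed (23 higher and 13 lower), against 21.2% of all tested genes (10.9% higher and 10.3% lower), and 26 passed with the adjusted p under 0.05 as well (17 higher and 9 lower), against 17.6% of all tested genes (9.12% higher and 8.5% lower). Of the 19 lymphoid-linked members, 16 rose and none fell, with a median log2 difference of 1.63 against 0.0026 over all tested genes. The lymphoid-linked list was chosen with earlier results of these data known, so this count is not an independent test. Among its members Ccr9, and among the others Cxcl1, Il12b and Il4i1, averaged 10 or more only with the cold Atf4WT libraries counted in. The filter thus favoured a high level of these genes there. The other 59 members split into 7 that rose and 13 that fell, with a median of -0.33. None of the lymphoid-linked members passed when replicates 1 and 2 of the Atf4WT cold group were left out together, where the median was 0.79 and the remaining library was assumed to vary like the other groups. With the mean log2 level of the 28 B and T cell markers as a covariate, 0 lymphoid-linked members rose, 1 fell and the median was 0.13. That mean level was 7.005 to 9.54 in the Atf4WT cold libraries and 3.91 to 6.91 in the Atf4WT RT libraries. These groups did not overlap in it, so this fit cannot tell a change with cold from a difference in marker level.

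In Atf4AKO iWAT, the members that passed with cold exposure were mostly lower. The count was 23 (3 higher and 20 lower), against 17.2% of all tested genes (8.3% higher and 8.92% lower), and 16 passed with the adjusted p (2 higher and 14 lower), against 13.3% of all tested genes (7.31% higher and 6.01% lower). Of the lymphoid-linked members, 1 rose (Ccr10) and 4 fell (Il18r1, Il2ra, Cxcr3 and Il16), with a median of -0.66. Of the other members 2 rose and 16 fell, with a median of -0.60 against -0.03 over all tested genes. Replicate 1 of the cold group, with the low macrophage markers, was the lowest of its group for 44 of the 59 other members, against 4487 of all 13404 tested genes. Without it, 3 of the other members rose and 12 fell, their median was -0.30, and 1 lymphoid-linked member fell. The share of all tested genes in that fit is not given.

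Cold exposure was measured in separate libraries of the 2 genotypes, and 14 members passed in both, against 11.8% of all tested genes (5.83% lower in both, 5.84% higher in both and 0.142% in opposite directions). Of these, 10 fell in both (Ccl11, Cxcl14, Cxcl9, Il17rb, Il17rc, Il17re, Il1r2, Il1rap, Il1rl2 and Il34) and 2 rose in both (Ccr10 and Il15ra). Cxcr3 and Il2ra rose in Atf4WT and fell in Atf4AKO iWAT. A further 22 members passed in Atf4WT only, 9 in Atf4AKO only and 33 in neither, against 9.42%, 5.42% and 73.4% of all tested genes, which by itself does not show a difference between genotypes.

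**Figure D2:**
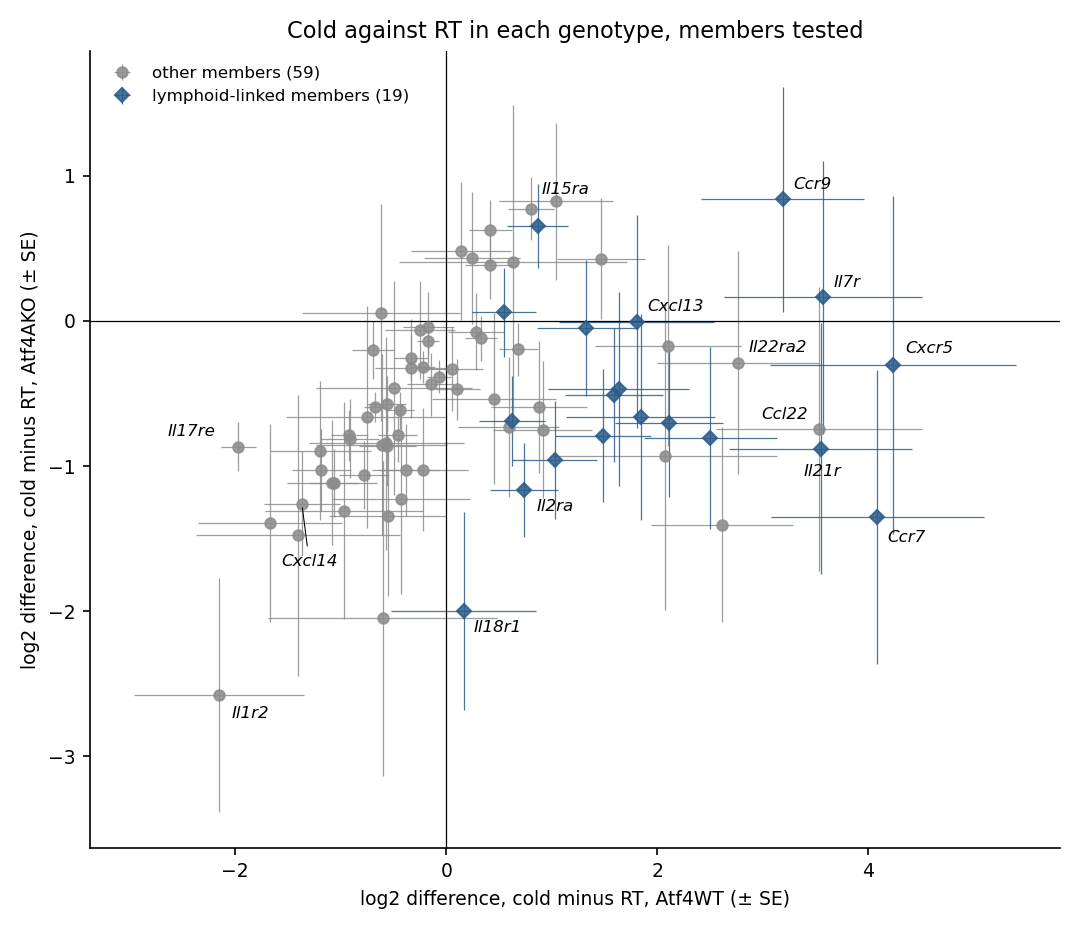
Each point is a tested member, placed by its log2 difference between cold and RT in Atf4WT (x axis) and in Atf4AKO iWAT (y axis), with standard errors as lines, diamonds for the 19 lymphoid-linked members and circles for the 59 others. The lymphoid-linked members lie to the right of 0 on the x axis, while Il17re, Il1r2 and Cxcl14 lie below 0 on both axes.

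Between the genotypes at RT, 1 of the 78 members passed, against 0.463% of all tested genes (0.283% lower). It was Il17re, which was lower in Atf4AKO iWAT. No lymphoid-linked member passed, and their median log2 difference was 0.18. With the adjusted p, which 0.00746% of all tested genes passed by limma, no member passed by limma, edgeR or DESeq2, with 1, 1 and 3 members at an unadjusted p under 0.05. The count was 3 without Atf4AKO RT replicate 0 and 2 without Atf4AKO RT replicate 1 or Atf4WT RT replicate 0.

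After cold exposure, 27 members were lower in Atf4AKO than in Atf4WT iWAT and none was higher, against 6.04% lower and 0.358% higher (6.4% in all) among all tested genes. They comprised 16 of the 19 lymphoid-linked members (median log2 difference -2.10) and 11 of the 59 others (median -0.13), against a median of 0.05 over all tested genes. By limma no member reached an adjusted p under 0.05, against 0.0298% of all tested genes, with 29 members at an unadjusted p under 0.05 and a lowest adjusted p of 0.0648. None did by edgeR on the recovered reads (29 unadjusted). DESeq2 on these reads, run without the filter on the mean, called 19 of the 91 members, against 3.62% of all genes. For 15 of the 19 lymphoid-linked members the 3 Atf4AKO libraries lay wholly below the 3 Atf4WT libraries, against 7.84% of all tested genes. Without replicates 1 and 2 of the Atf4WT cold group, which leaves 1 library there, the median was -0.93 for the lymphoid-linked members and -0.37 for the others. With the B and T cell markers as a covariate, 0 members passed and the median of the lymphoid-linked members was 0.0056. The mean log2 level of these markers was 7.005 to 9.54 in the Atf4WT cold libraries and 3.52 to 5.06 in the Atf4AKO cold libraries. The covariate thus separated these groups completely, so this fit cannot tell a genotype difference from a difference in marker level. Whether lymphocyte content accounts for the lower levels was not tested.

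The difference between the cold responses, that of Atf4AKO minus that of Atf4WT, passed for 22 members (21 lower and 1 higher), against 4.63% of all tested genes (4.17% lower and 0.463% higher). Of the lymphoid-linked members 14 were lower and none was higher, with a median of -2.16. The lowest adjusted p by limma was 0.474, shared by several members. No member passed with the adjusted p by limma (22 at an unadjusted p under 0.05, and 0.0% of all tested genes passing) or edgeR (21 unadjusted), and 10 did by DESeq2, against 0.678% of all genes. Il17re was the member with the higher value.

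**Figure D3:**
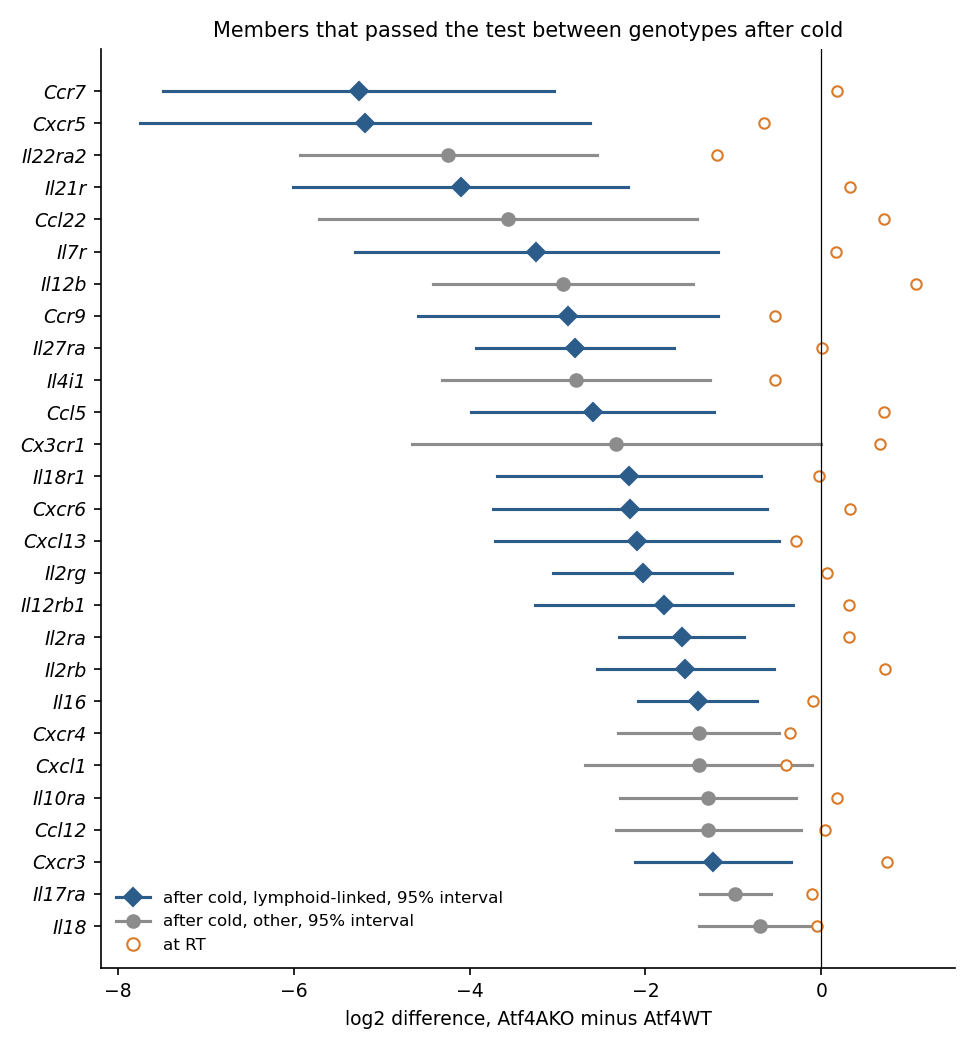
The 27 members that passed between the genotypes after cold exposure, with the log2 difference of Atf4AKO minus Atf4WT (x axis) and its 95% interval for lymphoid-linked (diamonds) and other members (filled circles), and open circles for the same difference at RT without an interval. All 27 values after cold lie below 0, from -5.26 (Ccr7) to -0.70 (Il18), while of the RT values none passed the test.

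Cxcl13 encodes the chemokine that stromal cells of B cell follicles secrete and that CXCR5 binds (chr5:95956951-95961068, plus strand, mm10). In each group the values follow for replicates 0, 1 and 2. Cxcl13 was at 198, 139.5 and 407 normalized counts in Atf4WT iWAT at RT and at 507, 99.6 and 122 in Atf4AKO iWAT at RT. After cold, Cxcl13 was at 663, 491 and 1494 in Atf4WT and at 209, 72.6 and 401 in Atf4AKO iWAT. The Atf4WT cold libraries were above the other groups except that replicate 1 (491) was below the highest Atf4AKO RT library (507), and the 3 Atf4AKO cold libraries lay wholly below them. Cxcl13 rose with cold in Atf4WT iWAT, by 1.80 ± 0.73 (adjusted p = 0.0825), and was lower in Atf4AKO iWAT after cold with a log2 difference of -2.10 ± 0.73 (adjusted p = 0.249). The difference with cold in Atf4AKO iWAT was -0.01 (95% interval -1.62 to 1.61). The Atf4WT call was lost without replicate 2 of the cold group (1.34) or replicates 0 (1.72) or 1 (1.46) of the RT group, and the genotype call without Atf4WT cold replicate 2 (-1.64) or Atf4AKO cold replicate 1 (-1.44).

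Ccr7 (chr11:99144196-99155077, minus strand) was at 36.8, 8.66 and 54.7 normalized counts in Atf4WT iWAT at RT and at 22.3, 20.9 and 56.6 in Atf4AKO iWAT at RT. After cold, Ccr7 was at 111, 882 and 1002 in Atf4WT and at 28.7, 2.27 and 17.2 in Atf4AKO iWAT. Replicates 1 and 2 of the Atf4WT cold group stood far above all other libraries, and replicate 0 of that group was still above each library of the other groups. The rise with cold in Atf4WT iWAT was 4.08 ± 1.01 (adjusted p = 0.0113), and the difference between genotypes after cold was -5.26 ± 1.01 (adjusted p = 0.0648). Cxcr5, the CXCL13 receptor (chr9:44511787-44561877, minus strand), was at 4.59, 2.89 and 100.1 normalized counts in Atf4WT iWAT at RT and at 28.8, 3.98 and 2.78 in Atf4AKO iWAT at RT. After cold, Cxcr5 was at 97.6, 273 and 538 in Atf4WT and at 7.44, 5.67 and 4.30 in Atf4AKO iWAT. Here the RT and cold groups of Atf4WT overlapped, since RT replicate 2, which also had the high B cell markers, was above cold replicate 0. Cxcr5 rose by 4.23 ± 1.16 (adjusted p = 0.0183) in Atf4WT iWAT and was lower in Atf4AKO iWAT after cold with a log2 difference of -5.19 ± 1.16 (adjusted p = 0.0707). The exons of Cxcr5 share 110 bases with those of Bcl9l on the opposite strand, and the strand setting of the counting is not given in the sources used here. The differences with cold in Atf4AKO iWAT were -1.35 (95% interval -3.58 to 0.87) for Ccr7 and -0.30 (95% interval -2.86 to 2.25) for Cxcr5. Both calls of each gene held without any single library. The lymph node stroma markers Madcam1 and Fut7, the 2 listed of 6, summed to 62.7, 116 and 129 normalized counts in the Atf4WT cold libraries and to 14.4 to 43.6 in the other 9.

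**Figure D4:**
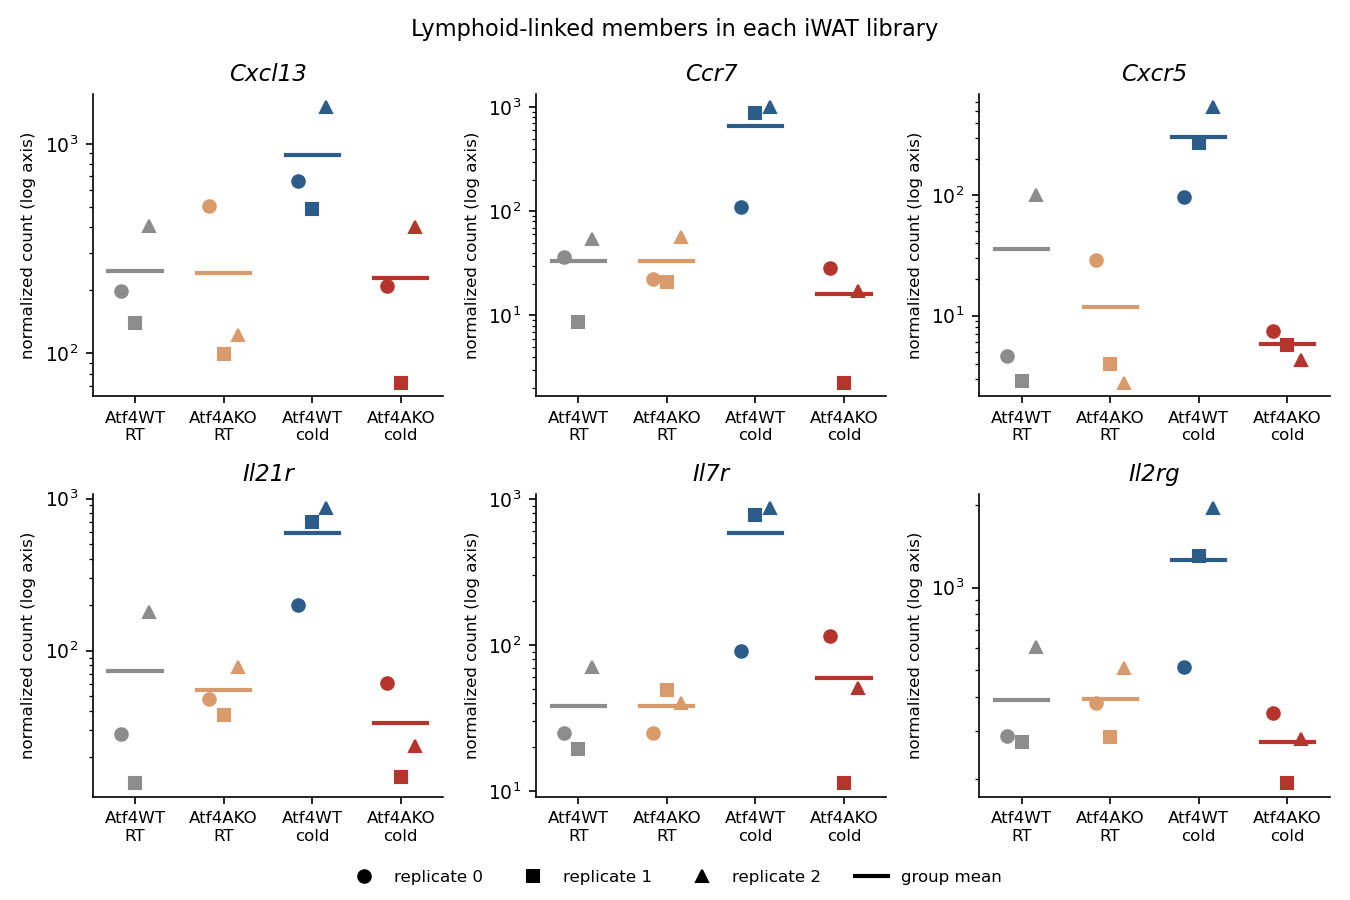
Normalized counts (log axis) of 6 lymphoid-linked members in each of the 12 libraries, by group, with a symbol for each replicate and a bar for the group mean. For Ccr7 and Il21r the 3 Atf4WT cold libraries lie above all 9 others, and replicate 0 is the lowest of these 3.

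Of the 13 tested ligands of the CC family, 2 rose with cold in Atf4WT iWAT, Ccl5 and Ccl22, against 10.9% of all tested genes. Ccl5 (RANTES), a lymphoid-linked chemokine made by T and NK cells, was at 139, 77.95 and 132 normalized counts in Atf4WT iWAT at RT and at 119, 165 and 322 in Atf4AKO iWAT at RT. After cold, Ccl5 was at 201, 967 and 1361 in Atf4WT and at 154, 69.2 and 109.6 in Atf4AKO iWAT. Its cold Atf4WT replicates 1 and 2 were above every other library, while replicate 0 lay within the range of Atf4AKO iWAT at RT. Ccl5 rose by 2.50 ± 0.63 (adjusted p = 0.012) in Atf4WT iWAT and was lower in Atf4AKO iWAT after cold with a log2 difference of -2.60 ± 0.63 (adjusted p = 0.0811). Ccl22, a chemokine of dendritic cells and macrophages that acts on CCR4, was at 35.8, 10.6 and 39.9 normalized counts in Atf4WT iWAT at RT and at 24.2, 42.8 and 68.7 in Atf4AKO iWAT at RT. After cold, Ccl22 was at 45.2, 764 and 767 in Atf4WT and at 42.5, 12.5 and 26.9 in Atf4AKO iWAT. Replicates 1 and 2 of the cold Atf4WT group were far above the other libraries, and its replicate 0 was just above the RT libraries of that genotype. The differences were 3.53 ± 0.98 (adjusted p = 0.0186) with cold in Atf4WT iWAT and -3.57 ± 0.98 (adjusted p = 0.12) between genotypes after cold.

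Ccl11 (eotaxin), which attracts eosinophils, fell with cold in both genotypes. It was at 874, 1081 and 816 normalized counts in Atf4WT iWAT at RT and at 1092, 745 and 899 in Atf4AKO iWAT at RT. After cold, Ccl11 was at 544, 342 and 448 in Atf4WT and at 447, 297 and 534 in Atf4AKO iWAT. The cold libraries lay wholly below the RT libraries in each genotype. The log2 difference was -1.07 ± 0.23 (adjusted p = 0.00621) in Atf4WT and -1.12 ± 0.23 (adjusted p = 0.00591) in Atf4AKO iWAT, and the genotypes differed by -0.08 (95% interval -0.59 to 0.44) after cold. Ccl24, a further eotaxin, fell in Atf4WT iWAT (-1.67, adjusted p = 0.0837) and had a difference of -1.39 (95% interval -2.89 to 0.11) in Atf4AKO iWAT. Of the monocyte chemokine genes, Ccl12 was lower in Atf4AKO iWAT after cold. It was at 66.8, 22.2 and 107 in cold Atf4WT and 20.2, 21.5 and 23.6 in cold Atf4AKO iWAT, groups that overlapped. Ccl2, Ccl6, Ccl7, Ccl8 and Ccl9 passed in no comparison, with wide spreads. Ccl8 was at 538, 58.1 and 692 in cold Atf4WT iWAT and 264, 22.7 and 429.8 in cold Atf4AKO iWAT. Replicate 1, the library with the low macrophage markers, was far the lowest for Ccl8 in both. The part of that marker level in the values was not tested.

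In the CXC family Cxcl14 and Cxcl9 fell with cold in both genotypes. Cxcl14, a chemokine of skin and connective tissue (chr13:56288643-56296551, minus strand), was at 996, 1476 and 1563 normalized counts in Atf4WT iWAT at RT and at 1752, 583 and 1687 in Atf4AKO iWAT at RT. After cold, Cxcl14 was at 417, 574 and 556 in Atf4WT and at 422, 491 and 604 in Atf4AKO iWAT. Each cold library was below each Atf4WT RT library, and a single low Atf4AKO RT library (replicate 1) overlapped with the cold values. The log2 difference was -1.37 ± 0.36 (adjusted p = 0.0154) in Atf4WT and -1.26 ± 0.36 (adjusted p = 0.0263) in Atf4AKO iWAT. Cxcl9, the interferon-gamma-induced ligand of CXCR3, was at 1596, 1433 and 1735 normalized counts in Atf4WT iWAT at RT and at 1220.5, 1747 and 2328 in Atf4AKO iWAT at RT. After cold, Cxcl9 was at 779.7, 1189.5 and 847 in Atf4WT and at 848, 983 and 651 in Atf4AKO iWAT. Its cold libraries were wholly below the RT libraries in both genotypes, with log2 differences of -0.78 ± 0.23 (adjusted p = 0.0265) in Atf4WT and -1.06 ± 0.23 (adjusted p = 0.00755) in Atf4AKO iWAT. Cxcl12, the ligand of CXCR4 and a stromal chemokine, was the most even of these, at 5524, 4508 and 4782 normalized counts in Atf4WT iWAT at RT and at 5267, 4929 and 5484 in Atf4AKO iWAT at RT. After cold, Cxcl12 was at 4192, 4642 and 5349 in Atf4WT and at 4069, 3553 and 4431 in Atf4AKO iWAT. Its differences stayed under the fold of 1.5, with -0.06 ± 0.11 (SE) in Atf4WT and -0.38 ± 0.11 (SE) in Atf4AKO iWAT with cold. Cxcl1, a neutrophil chemokine of low level (mean 17.6 ± 6.13 normalized counts in cold Atf4WT and 6.88 ± 4.77 in cold Atf4AKO iWAT, SD, n = 3), was lower in Atf4AKO iWAT after cold (-1.39, adjusted p = 0.369).

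The fibroblast markers moved with these falls. All 6 were listed, and they summed to 145126 to 209437 normalized counts in the RT libraries and to 44551 to 102004 in the cold libraries of both genotypes. Their part in the falls of Ccl11, Cxcl14 and Cxcl9 was not tested. In the fit with the B and T cell markers as a covariate the 3 genes fell in both genotypes. In Atf4WT iWAT the mean marker level did not overlap between RT and cold, so there this fit cannot tell cold from marker level. Without Atf4WT cold replicates 1 and 2 the 3 genes were still lower with cold in Atf4WT iWAT. That fit leaves the Atf4AKO differences as they were.

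**Figure D5:**
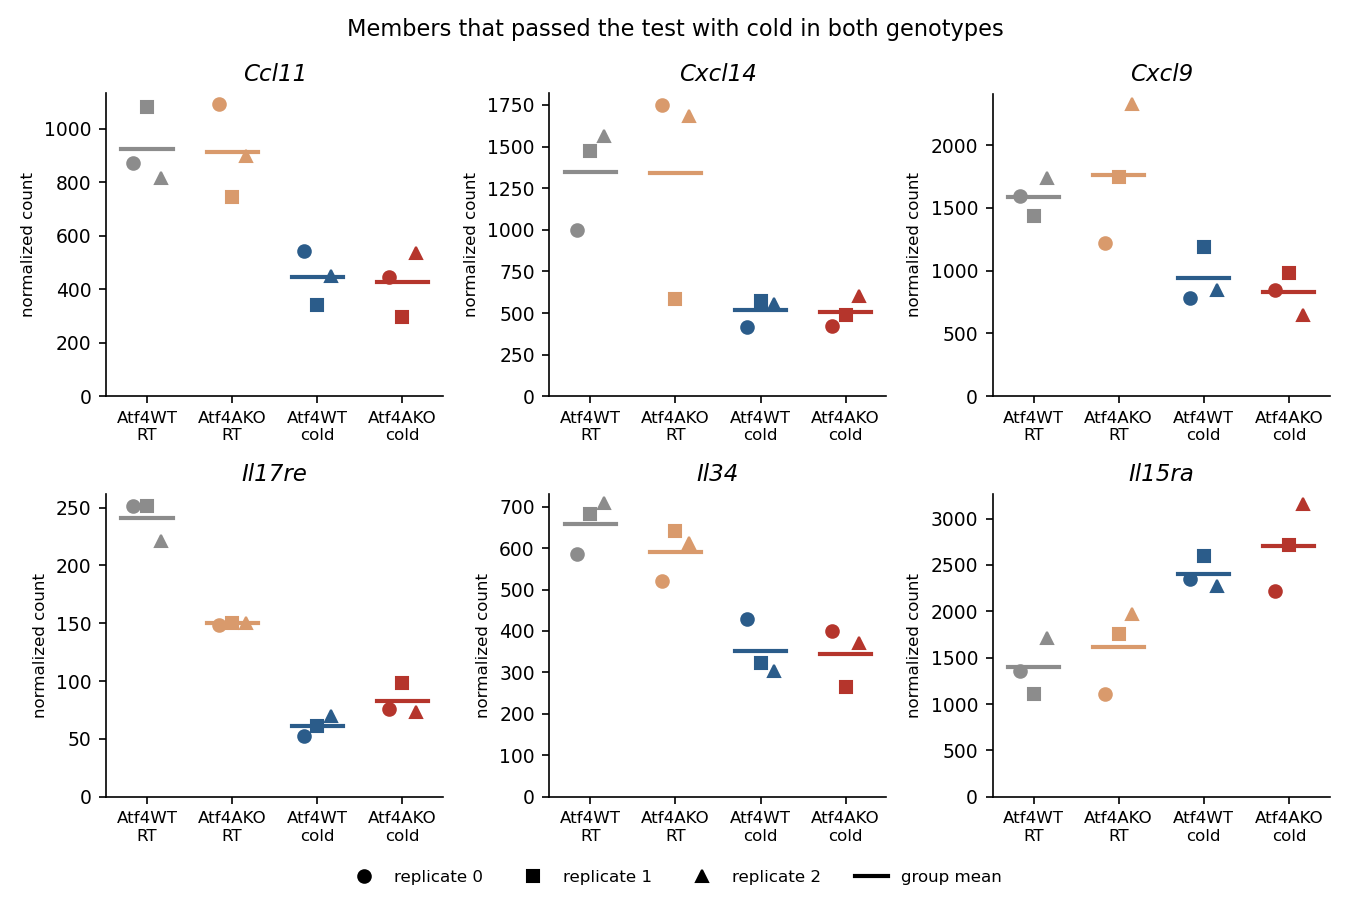
Normalized counts of 6 members that passed with cold in both genotypes, in each of the 12 libraries by group, with a symbol for each replicate and a bar for the group mean. Ccl11, Cxcl14, Cxcl9, Il17re and Il34 are lower and Il15ra is higher in the cold groups, and Il17re is also lower in Atf4AKO than in Atf4WT iWAT at RT.

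Promoter windows of 250 bases before to 50 bases after the start were taken from RefSeq (GRCm38.p6), which gave 84 windows for 69 of the members. Ccr7 and Cxcr5 had no entry. Both strands were searched for TATAAA, for TGATGNAA (a form of the C/EBP-ATF element that ATF4 binds), for TGACGTCA (the full CRE) and for the NF-kB consensus. TATAAA was in 20 member windows (23.8%) against 13.6% of all 32851 windows, TGATGNAA in 5 (5.95%) against 3.97%, TGACGTCA in 0 against 1.79%, and the NF-kB consensus in 10 (11.9%, among them Cxcl1, Cxcl10, Ccl9 and Il2ra) against 4.51%. Windows of neighbouring starts of a gene overlap, so they are not independent, and a match is a string of letters, not a shown binding site. The windows of 4 members are given because Cxcl13 and Il12b rose in Atf4WT iWAT and were lower in Atf4AKO iWAT after cold, and Cxcl14 and Il17re fell with cold in both genotypes. They lie at chr5:95956689-95956988, plus strand (Cxcl13), chr11:44399813-44400112, plus strand (Il12b), chr13:56296502-56296801, minus strand (Cxcl14) and chr6:113458521-113458820, plus strand (Il17re). Capitals mark TATAAA in Cxcl13, which begins at position -46 from the start, and TGATGNAA on the reverse strand in Il12b, which begins at position -59. The windows of Cxcl14 and Il17re held none of the 4 motifs.
Cxcl13: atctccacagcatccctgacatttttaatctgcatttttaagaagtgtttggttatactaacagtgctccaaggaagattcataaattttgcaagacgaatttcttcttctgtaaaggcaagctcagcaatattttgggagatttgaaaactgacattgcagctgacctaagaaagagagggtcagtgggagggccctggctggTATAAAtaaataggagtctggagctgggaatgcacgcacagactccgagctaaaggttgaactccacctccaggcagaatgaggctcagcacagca
Il12b: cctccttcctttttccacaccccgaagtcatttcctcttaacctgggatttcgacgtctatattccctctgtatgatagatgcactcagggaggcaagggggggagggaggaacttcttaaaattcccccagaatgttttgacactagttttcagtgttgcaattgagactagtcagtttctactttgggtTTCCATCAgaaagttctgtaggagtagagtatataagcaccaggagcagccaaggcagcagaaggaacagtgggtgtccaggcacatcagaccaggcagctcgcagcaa
Cxcl14: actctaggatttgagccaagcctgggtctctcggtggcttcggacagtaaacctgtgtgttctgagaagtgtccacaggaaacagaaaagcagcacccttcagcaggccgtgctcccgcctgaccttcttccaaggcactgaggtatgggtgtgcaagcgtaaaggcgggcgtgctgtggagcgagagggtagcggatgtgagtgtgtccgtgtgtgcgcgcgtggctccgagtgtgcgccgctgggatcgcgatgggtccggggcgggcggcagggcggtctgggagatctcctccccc
Il17re: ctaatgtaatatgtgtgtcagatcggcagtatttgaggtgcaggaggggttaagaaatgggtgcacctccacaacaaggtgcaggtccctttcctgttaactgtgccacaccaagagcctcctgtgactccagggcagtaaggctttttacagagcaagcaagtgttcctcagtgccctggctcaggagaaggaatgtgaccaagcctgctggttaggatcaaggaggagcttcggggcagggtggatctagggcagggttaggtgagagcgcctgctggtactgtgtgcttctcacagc

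Of the 10 other chemokine receptors, 5 rose with cold in Atf4WT iWAT (Ccr9, Cxcr6, Cxcr4, Cxcr3 and Ccr10) and 5 were lower in Atf4AKO iWAT after cold (Ccr9, Cx3cr1, Cxcr6, Cxcr4 and Cxcr3). Among all tested genes 10.9% rose with cold in Atf4WT iWAT and 6.04% were lower after cold. Cxcr4, the CXCL12 receptor, found on most leukocytes, was at 164, 184 and 174 normalized counts in Atf4WT iWAT at RT and at 169, 129 and 112 in Atf4AKO iWAT at RT. After cold, Cxcr4 was at 209.6, 610.1 and 866 in Atf4WT and at 225, 136 and 197 in Atf4AKO iWAT. The cold Atf4WT libraries were all above the Atf4WT RT libraries, but replicate 0 overlapped with the cold Atf4AKO values. Cxcr4 rose by 1.46 ± 0.42 (adjusted p = 0.0211) and was lower in Atf4AKO iWAT after cold with a log2 difference of -1.40 ± 0.42 (adjusted p = 0.16). Ccr9, the CCL25 receptor known for homing of lymphocytes to the gut, was at 4.59, 0.962 and 6.49 normalized counts in Atf4WT iWAT at RT and at 0.930, 1.99 and 3.71 in Atf4AKO iWAT at RT. After cold, Ccr9 was at 11.3, 59.1 and 82.9 in Atf4WT and at 6.38, 5.67 and 2.15 in Atf4AKO iWAT. It was near the limit of counting in the other 3 groups, and rose by 3.19 ± 0.77 (adjusted p = 0.0102) in Atf4WT iWAT, with a genotype difference after cold of -2.88 ± 0.77 (adjusted p = 0.113).

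Cxcr3, the receptor for CXCL9 and CXCL10 on activated T and NK cells, was at 50.5, 47.2 and 53.8 normalized counts in Atf4WT iWAT at RT and at 88.3, 52.8 and 134 in Atf4AKO iWAT at RT. After cold, Cxcr3 was at 62.7, 112 and 159 in Atf4WT and at 57.4, 28.3 and 50.5 in Atf4AKO iWAT. The Atf4WT cold libraries were above those at RT and above those of cold Atf4AKO iWAT, and the 2 Atf4AKO groups overlapped. Cxcr3 rose in Atf4WT iWAT, by 1.03 ± 0.40 (adjusted p = 0.074), and fell in Atf4AKO iWAT with a log2 difference of -0.96 ± 0.40 (adjusted p = 0.104). The rise was lost without any of 4 libraries (0.72 without Atf4WT cold replicate 2), the fall without any of 3 (-0.64 without Atf4AKO RT replicate 2), and the genotype call after cold (-1.24) without Atf4WT cold replicate 2 (-0.93). Its ligand Cxcl9 fell in both genotypes, as given above. Cx3cr1, the fractalkine receptor, which was lower in Atf4AKO iWAT after cold (-2.33, adjusted p = 0.423), was at 20.5, 88.7 and 149.7 in cold Atf4WT and 75.5, 1.13 and 12.9 in cold Atf4AKO iWAT, groups that overlapped. Ccr1, Ccr2 and Xcr1 passed neither with cold nor between genotypes at either temperature.

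The 4 atypical receptors, which bind chemokines without G protein signalling, passed in no comparison. Ackr1 (DARC), of venules and red cell precursors, was at 252, 220.4 and 349 normalized counts in Atf4WT iWAT at RT and at 363, 273 and 341 in Atf4AKO iWAT at RT. After cold, Ackr1 was at 269, 146 and 247 in Atf4WT and at 260.4, 155 and 422 in Atf4AKO iWAT. Ackr2, a scavenger of inflammatory CC chemokines, was at 148, 214 and 292 normalized counts in Atf4WT iWAT at RT, 224, 120.5 and 226 in Atf4AKO iWAT at RT, 287, 49.6 and 197 in cold Atf4WT iWAT and 114, 34.01 and 266 in cold Atf4AKO iWAT, with replicate 1 lowest in both cold groups. Ackr4, a scavenger of CCL19, CCL21 and CCL25, was at 25.7, 34.6 and 38.9 normalized counts in Atf4WT iWAT at RT, 20.5, 30.9 and 27.8 in Atf4AKO iWAT at RT, 104, 30.6 and 99.8 in cold Atf4WT iWAT and 52.1, 21.5 and 90.3 in cold Atf4AKO iWAT, with a difference with cold of 1.04 (95% interval -0.14 to 2.23) in Atf4WT and 0.82 (95% interval -0.36 to 2.01) in Atf4AKO iWAT. In Ackr4 too, replicate 1 was the lowest library of each cold group. The exons of Ackr1 share 361 bases with Cadm3 and those of Ackr4 479 bases with Acad11, so reads there are uncertain.

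Receptors of the common gamma chain family, which T, B and NK cells use for IL-2, IL-7, IL-15 and IL-21, held 5 tested lymphoid-linked members. Il21r was at 28.5, 13.5 and 179 normalized counts in Atf4WT iWAT at RT and at 48.3, 37.8 and 77.9 in Atf4AKO iWAT at RT. After cold, Il21r was at 200.3, 698 and 869 in Atf4WT and at 61.7, 14.7 and 23.6 in Atf4AKO iWAT. Every cold Atf4WT library was above every other library, with replicate 0 just above Atf4WT RT replicate 2. Il21r rose by 3.55 ± 0.87 (adjusted p = 0.0106) in Atf4WT iWAT and was lower in Atf4AKO iWAT after cold with a log2 difference of -4.10 ± 0.87 (adjusted p = 0.0667). Il7r was at 91.4, 780.0 and 871 in cold Atf4WT iWAT and 116, 11.3 and 50.5 in cold Atf4AKO iWAT, and the groups overlapped between Atf4WT replicate 0 and Atf4AKO replicate 0. It rose in Atf4WT iWAT (3.57, adjusted p = 0.0148) and was lower in Atf4AKO iWAT after cold (-3.24, adjusted p = 0.144).

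Il2rg, the common gamma chain itself (chrX:101264378-101268255, minus strand), was at 288, 273 and 606 normalized counts in Atf4WT iWAT at RT and at 380.2, 285 and 510.2 in Atf4AKO iWAT at RT. After cold, Il2rg was at 513, 1302 and 1956 in Atf4WT and at 348, 194 and 282 in Atf4AKO iWAT. Cold replicate 0 of Atf4WT was below RT replicate 2, and the cold Atf4AKO libraries lay wholly below the cold Atf4WT ones. It rose by 1.59 ± 0.46 (adjusted p = 0.0234) in Atf4WT iWAT and was lower in Atf4AKO iWAT after cold with a log2 difference of -2.03 ± 0.46 (adjusted p = 0.072). Il2ra (CD25), the IL-2 receptor alpha chain that is high on regulatory T cells, was at 76.3, 96.2 and 89.9 normalized counts in Atf4WT iWAT at RT and at 107, 109 and 110.4 in Atf4AKO iWAT at RT. After cold, Il2ra was at 90.4, 146 and 236 in Atf4WT and at 57.4, 32.9 and 58.02 in Atf4AKO iWAT. It fell with cold in Atf4AKO iWAT with no overlap and a log2 difference of -1.17 ± 0.32 (adjusted p = 0.0221), and was lower there than in cold Atf4WT iWAT with a log2 difference of -1.59 ± 0.32 (adjusted p = 0.0667). Its rise in Atf4WT iWAT (0.74 ± 0.32, adjusted p = 0.101) overlapped with RT and was lost without any of 8 libraries, with values of 0.39 to 0.81. The interaction was -1.91 ± 0.45 (adjusted p = 0.474). Il2rb rose in Atf4WT iWAT (1.49, adjusted p = 0.0294) and was lower in Atf4AKO iWAT after cold (-1.55, adjusted p = 0.154).

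Il15ra, which presents IL-15 to neighbouring cells and is not lymphoid-linked here, rose with cold in both genotypes. It was at 1362, 1111 and 1717 normalized counts in Atf4WT iWAT at RT and at 1106, 1760.4 and 1967 in Atf4AKO iWAT at RT. After cold, Il15ra was at 2353, 2597 and 2272 in Atf4WT and at 2224, 2716 and 3162 in Atf4AKO iWAT. The cold libraries lay wholly above the RT libraries in both genotypes, and the genotypes overlapped. The rise was 0.81 ± 0.22 (adjusted p = 0.0163) in Atf4WT and 0.77 ± 0.22 (adjusted p = 0.0237) in Atf4AKO iWAT, the latter under the fold of 1.5 without Atf4AKO RT replicate 0 (0.52). After cold the genotypes differed by 0.15 (95% interval -0.32 to 0.63). Its ligand Il15, with Il7 and Il4ra, passed in no comparison, while Il13ra1 fell in Atf4AKO iWAT with cold (-1.02, adjusted p = 0.0962).

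In the IL-6 and IL-12 families, 3 of 7 tested members rose with cold in Atf4WT iWAT (Il27ra, Il12b and Il12rb1) and the same 3 were lower in Atf4AKO iWAT after cold. The shares among all tested genes in these 2 comparisons were 10.9% and 6.04%. Il12rb1, the receptor chain that IL-12 and IL-23 share, had log2 differences of 1.63 ± 0.67 (adjusted p = 0.0838) and -1.79 ± 0.67 (adjusted p = 0.291) in these comparisons. Il27ra, the IL-27 receptor of T cells, was at 59.7, 57.7 and 135 normalized counts in Atf4WT iWAT at RT and at 71.6, 60.7 and 109 in Atf4AKO iWAT at RT. After cold, Il27ra was at 142, 439 and 624 in Atf4WT and at 60.6, 35.1 and 50.5 in Atf4AKO iWAT. All 3 cold Atf4WT libraries were above all 9 others. The rise was 2.11 ± 0.51 (adjusted p = 0.0102), and the difference between genotypes after cold was -2.81 ± 0.51 (adjusted p = 0.0648). Il12b, the p40 chain of IL-12 and IL-23 made by dendritic cells, was low, at 3.67, 2.89 and 3.71 normalized counts in Atf4WT iWAT at RT and at 2.79, 10.95 and 16.7 in Atf4AKO iWAT at RT. After cold, Il12b was at 12.3, 32.7 and 42.4 in Atf4WT and at 2.13, 5.67 and 1.07 in Atf4AKO iWAT. It rose by 2.61 ± 0.67 (adjusted p = 0.0133) in Atf4WT iWAT. After cold it was lower in Atf4AKO iWAT, with a log2 difference of -2.94 ± 0.67 (adjusted p = 0.072). Its interaction was -4.01 ± 0.95 (adjusted p = 0.474), and -3.36 with the B and T cell markers as a covariate. That covariate separated the Atf4WT cold libraries from the other groups, so the second value does not show what the difference comes from. Il6ra, the ligand-binding IL-6 receptor chain, fell in Atf4AKO iWAT: it was at 476, 524 and 804 normalized counts in Atf4WT iWAT at RT and at 517, 639 and 648 in Atf4AKO iWAT at RT. After cold, Il6ra was at 302, 481 and 431 in Atf4WT and at 321, 235 and 469.5 in Atf4AKO iWAT. The difference with cold was -0.86 ± 0.27 (adjusted p = 0.0375) in Atf4AKO and -0.56 ± 0.27 (adjusted p = 0.139) in Atf4WT iWAT, where it did not pass. Il6st (gp130), the signalling chain that the IL-6 family shares, had log2 differences of -0.18 (95% interval -0.41 to 0.06) in Atf4WT and -0.14 (95% interval -0.37 to 0.10) in Atf4AKO iWAT with cold.

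Of the IL-1 family ligands and binding proteins, Il18 and Il33 fell with cold in Atf4AKO iWAT and none passed in Atf4WT iWAT. Il18, a cytokine matured by inflammasomes, was at 185, 168 and 253 normalized counts in Atf4WT iWAT at RT and at 199, 161 and 219 in Atf4AKO iWAT at RT. After cold, Il18 was at 177, 94.99 and 209 in Atf4WT and at 113, 63.5 and 114 in Atf4AKO iWAT. It fell with a log2 difference of -1.03 ± 0.31 (adjusted p = 0.0341) in Atf4AKO iWAT and was lower there than in cold Atf4WT iWAT with a log2 difference of -0.70 ± 0.31 (adjusted p = 0.421), a call with overlapping groups that was lost without any of 8 libraries (-0.42 without Atf4AKO cold replicate 1). Il33, the alarmin of stromal cells that acts on innate lymphoid and regulatory T cells, was at 173, 186 and 323 normalized counts in Atf4WT iWAT at RT and at 208, 98.6 and 247 in Atf4AKO iWAT at RT. After cold, Il33 was at 157, 77.1 and 267 in Atf4WT and at 68.03, 34.01 and 130.0 in Atf4AKO iWAT. Its log2 difference in Atf4AKO iWAT was -1.34 ± 0.55 (adjusted p = 0.0958), with overlapping groups, and the call was lost without any of 4 libraries, with values of -1.35 to -0.86. Il18bp, the secreted inhibitor of IL-18, was at 264, 191 and 211 normalized counts in Atf4WT iWAT at RT, 278, 243 and 261 in Atf4AKO iWAT at RT, 233, 299 and 303 in cold Atf4WT iWAT and 265, 224 and 229.9 in cold Atf4AKO iWAT and passed in no comparison. Il1b averaged 9.11 normalized counts over the 12 libraries, under the level for testing in the main fit. It was at 2.76, 0.962 and 12.1 normalized counts in Atf4WT iWAT at RT and at 8.37, 0.996 and 12.99 in Atf4AKO iWAT at RT. After cold, Il1b was at 19.5, 10.6 and 29.2 in Atf4WT and at 1.06, 2.27 and 8.60 in Atf4AKO iWAT. The cold Atf4AKO libraries thus lay wholly below the cold Atf4WT ones, at few reads.

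Of the 7 tested receptors of the IL-1 family, 4 fell and 1 rose with cold in Atf4WT iWAT, and 4 fell in Atf4AKO iWAT. Among all tested genes 10.3% fell and 10.9% rose with cold in Atf4WT iWAT, and 8.92% fell in Atf4AKO iWAT. Il1r1, the signalling IL-1 receptor, passed in neither genotype, with -0.34 (95% interval -0.69 to 0.02) in Atf4WT and -0.26 (95% interval -0.61 to 0.10) in Atf4AKO iWAT. Il1r2, the decoy receptor that binds IL-1 without signalling, was at 604, 575 and 879.9 normalized counts in Atf4WT iWAT at RT and at 1464, 524 and 571 in Atf4AKO iWAT at RT. After cold, Il1r2 was at 241, 57.00 and 249.6 in Atf4WT and at 129, 36.3 and 429.8 in Atf4AKO iWAT. The cold libraries were wholly below the RT libraries in each genotype, and replicate 1 was far the lowest of both cold groups. The log2 difference was -2.15 ± 0.80 (adjusted p = 0.0625) in Atf4WT and -2.58 ± 0.80 (adjusted p = 0.0369) in Atf4AKO iWAT. The call was lost in Atf4WT iWAT without cold replicate 1 (-1.45) or RT replicate 2 (-1.96), and was -1.69 in Atf4AKO iWAT without cold replicate 1. Il1rap, the co-receptor that IL-1, IL-33 and IL-36 receptors share, was at 173, 173 and 168 normalized counts in Atf4WT iWAT at RT and at 231, 172 and 166 in Atf4AKO iWAT at RT. After cold, Il1rap was at 96.6, 63.3 and 121 in Atf4WT and at 98.9, 80.5 and 152 in Atf4AKO iWAT. Its cold libraries were wholly below RT in both genotypes, with log2 differences of -0.91 ± 0.27 (adjusted p = 0.0258) in Atf4WT and -0.81 ± 0.27 (adjusted p = 0.0478) in Atf4AKO iWAT, the latter lost without Atf4AKO RT replicate 0 (-0.66) or cold replicate 1 (-0.61). Il1rl2, the IL-36 receptor, fell in both genotypes (-1.08, adjusted p = 0.0755 in Atf4WT, -1.11, adjusted p = 0.0774 in Atf4AKO), and Il1rl1 (ST2), the IL-33 receptor, in Atf4WT iWAT (-1.19, adjusted p = 0.0787), with -0.90 (95% interval -1.95 to 0.16) in Atf4AKO iWAT.

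Il18r1, the IL-18 receptor chain of T and NK cells, was with Il16 and Il12rb2 among the 3 tested lymphoid-linked members that did not pass with cold in Atf4WT iWAT. It was at 84.5, 66.4 and 257 normalized counts in Atf4WT iWAT at RT and at 153, 45.8 and 195 in Atf4AKO iWAT at RT. After cold, Il18r1 was at 58.6, 146 and 238 in Atf4WT and at 34.01, 15.9 and 36.5 in Atf4AKO iWAT. Cold and RT overlapped in Atf4WT iWAT, where the difference was 0.16 (95% interval -1.34 to 1.66), while the cold Atf4AKO libraries were below all 9 others. The log2 difference in Atf4AKO iWAT was -1.999 ± 0.68 (adjusted p = 0.0516), and the call was lost without Atf4AKO RT replicate 2 (-1.60) or cold replicate 1 (-1.63). Between genotypes after cold the difference was -2.19 ± 0.68 (adjusted p = 0.183). Its partner chain Il18rap rose in Atf4WT iWAT (1.33, adjusted p = 0.0502) and did not pass in Atf4AKO iWAT (-0.05 (95% interval -1.08 to 0.98)).

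In the IL-10 family Il22ra2 stood out. This gene encodes a secreted protein that binds and blocks IL-22, and it was at 9.19, 14.4 and 60.3 normalized counts in Atf4WT iWAT at RT and at 10.2, 4.98 and 11.1 in Atf4AKO iWAT at RT. After cold, Il22ra2 was at 95.5, 71.8 and 428 in Atf4WT and at 8.50, 3.40 and 9.67 in Atf4AKO iWAT. All 3 cold Atf4WT libraries were above all 9 others, and replicate 2 was far the highest. It rose by 2.76 ± 0.77 (adjusted p = 0.0192) in Atf4WT iWAT and was lower in Atf4AKO iWAT after cold with a log2 difference of -4.24 ± 0.77 (adjusted p = 0.0648). Without cold replicates 1 and 2 of Atf4WT the rise in that genotype was 2.18, and that of Il15ra was 0.78. Il10rb, the chain shared by IL-10, IL-22 and interferon-lambda receptors, was at 1669, 1592 and 1544 normalized counts in Atf4WT iWAT at RT and at 1743, 1901 and 1417 in Atf4AKO iWAT at RT. After cold, Il10rb was at 1309, 1086 and 1158 in Atf4WT and at 1267, 952 and 1077 in Atf4AKO iWAT. It fell in Atf4AKO iWAT with a log2 difference of -0.62 ± 0.13 (adjusted p = 0.00572), and in Atf4WT iWAT the difference of -0.44 ± 0.13 (adjusted p = 0.0237) was under the fold of 1.5, although the libraries did not overlap in either genotype. Without Atf4AKO RT replicate 1 (-0.53) or cold replicate 1 (-0.52) the fall was also under that fold. Il20rb, a chain of the IL-20 and IL-24 receptor, rose in Atf4AKO iWAT with a log2 difference of 0.63 ± 0.20 (adjusted p = 0.0435), and was at 85.4, 106 and 103 normalized counts in Atf4WT iWAT at RT and at 66.00, 79.7 and 93.7 in Atf4AKO iWAT at RT. After cold, Il20rb was at 148, 142 and 105 in Atf4WT and at 125, 103 and 142 in Atf4AKO iWAT. That rise was under the fold of 1.5 without Atf4AKO RT replicate 0 (0.50) or cold replicate 2 (0.52).

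The IL-17 receptors moved in different directions with cold. Il17re, the receptor chain for IL-17C (chr6:113458484-113470758, plus strand), was at 252, 251 and 221 normalized counts in Atf4WT iWAT at RT and at 149, 150.3 and 150.3 in Atf4AKO iWAT at RT. After cold, Il17re was at 52.4, 61.2 and 69.7 in Atf4WT and at 75.5, 98.6 and 73.1 in Atf4AKO iWAT. No groups overlapped: Atf4WT at RT was highest, then Atf4AKO at RT, then cold Atf4AKO and cold Atf4WT iWAT. It was lower in Atf4AKO than in Atf4WT iWAT at RT with a log2 difference of -0.68 ± 0.17 (adjusted p = 1), and fell with cold, the differences being -1.97 ± 0.17 (adjusted p = 4.55e-05) in Atf4WT and -0.87 ± 0.17 (adjusted p = 0.00394) in Atf4AKO iWAT. The interaction was 1.10 ± 0.24 (adjusted p = 0.474), and after cold the difference of 0.42 ± 0.17 (adjusted p = 0.331) was under the fold of 1.5. These 4 calls held without any single library, and the interaction was 1.31 without Atf4WT cold replicates 1 and 2 and 1.07 with the B and T cell markers as a covariate. That covariate separated the Atf4WT cold libraries from the other groups, so the last value does not show what the difference comes from. Il17re lies beside Il17rc on chromosome 6, and the exons of the 2 genes do not overlap those of another listed gene.

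Il17rc, the chain that pairs with Il17ra for IL-17A and IL-17F (chr6:113471427-113483140, plus strand), was at 1247, 1283 and 1101 normalized counts in Atf4WT iWAT at RT and at 1243, 1416 and 1157 in Atf4AKO iWAT at RT. After cold, Il17rc was at 793, 815 and 672 in Atf4WT and at 879, 850.3 and 793 in Atf4AKO iWAT. It fell with cold without overlap in both genotypes, with a log2 difference of -0.67 ± 0.11 (adjusted p = 0.00108) in Atf4WT and of -0.59 ± 0.11 (adjusted p = 0.00253) in Atf4AKO iWAT. In Atf4AKO iWAT the fall was under the fold of 1.5 without RT replicate 1 (-0.51) or cold replicate 2 (-0.55). Il17ra, the chain shared by the IL-17 receptors, was instead at 472, 447 and 493 normalized counts in Atf4WT iWAT at RT and at 483, 372 and 469 in Atf4AKO iWAT at RT. After cold, Il17ra was at 548, 845 and 936 in Atf4WT and at 415, 341 and 398 in Atf4AKO iWAT. It rose in Atf4WT iWAT, by 0.68 ± 0.18 (adjusted p = 0.0164), which was under the fold of 1.5 without cold replicate 2 (0.53), and was lower in Atf4AKO iWAT after cold with a log2 difference of -0.98 ± 0.18 (adjusted p = 0.0648). Il17rb, the IL-25 receptor, fell in both genotypes (-1.18, adjusted p = 0.00929 in Atf4WT, -1.03, adjusted p = 0.0213 in Atf4AKO), and Il17rd in Atf4WT iWAT (-0.69, adjusted p = 0.0222).

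Il34, a ligand of the CSF1 receptor of macrophages, was at 586, 682 and 708 normalized counts in Atf4WT iWAT at RT and at 521, 640.2 and 611 in Atf4AKO iWAT at RT. After cold, Il34 was at 428, 322 and 303 in Atf4WT and at 399.7, 265 and 371 in Atf4AKO iWAT. Its cold libraries were wholly below RT in each genotype, with log2 differences of -0.92 ± 0.18 (adjusted p = 0.00323) in Atf4WT and -0.79 ± 0.18 (adjusted p = 0.00811) in Atf4AKO iWAT. Il3ra, the IL-3 receptor alpha chain, was at 386, 295 and 341 normalized counts in Atf4WT iWAT at RT, 342, 344 and 322 in Atf4AKO iWAT at RT, 259, 269 and 215 in cold Atf4WT iWAT and 257, 151 and 188 in cold Atf4AKO iWAT, and fell in Atf4AKO iWAT with a log2 difference of -0.79 ± 0.19 (adjusted p = 0.0104), while the difference in Atf4WT iWAT (-0.46 (95% interval -0.86 to -0.05)) was under the fold of 1.5. Il16, a chemoattractant for CD4+ cells, was at 392, 466 and 578 normalized counts in Atf4WT iWAT at RT and at 516, 316 and 526 in Atf4AKO iWAT at RT. After cold, Il16 was at 425, 841 and 1075 in Atf4WT and at 303, 241 and 279 in Atf4AKO iWAT. Cold Atf4AKO libraries lay wholly below cold Atf4WT libraries, with a difference of -1.41 ± 0.31 (adjusted p = 0.0695). Its fall in Atf4AKO iWAT (-0.69 ± 0.31, adjusted p = 0.125) was lost without any of 9 libraries, with values of -0.76 to -0.56.

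Il4i1, a secreted amino acid oxidase of B cells and phagocytes, was at 4.59, 9.62 and 26.9 normalized counts in Atf4WT iWAT at RT and at 8.37, 6.97 and 6.49 in Atf4AKO iWAT at RT. After cold, Il4i1 was at 16.4, 68.6 and 106 in Atf4WT and at 8.50, 6.80 and 4.30 in Atf4AKO iWAT. It rose by 2.10 ± 0.69 (adjusted p = 0.0389) in Atf4WT iWAT with overlap, and was lower in Atf4AKO iWAT after cold with a log2 difference of -2.79 ± 0.69 (adjusted p = 0.0846). The rise was lost without Atf4WT RT replicate 0 (1.56) or cold replicate 2 (1.56), and the interaction (-2.27) without any of 9 libraries, with values of -2.34 to -1.73. Of the 4080 exon bases of its GENCODE model 3423 overlap Tbc1d17 on the opposite strand, so its reads are uncertain. That model begins beside the start of Il4i1b, which is listed here as a separate gene. The Il4i1 model that was counted may therefore be shorter and overlap less. In all, exons of 14 members overlap those of another listed gene, the longest after Il4i1 being Il12rb2 with Serbp1 (1519 bases) and Il16 with Stard5 (1202 bases). Ccl27a and Il11ra1 have near-identical copies in the mouse genome, so their uniquely mapped reads are uncertain too.

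Read per kilobase of exon (GENCODE vM21), tissue chemokines and the receptor gene Il11ra1, rather than lymphoid-linked members, had the highest levels at RT. In Atf4WT iWAT at RT Ccl6 led with 1850 ± 291 normalized counts per kilobase (SD, n = 3), followed by Ccl8 (859 ± 258), Ccl11 (853 ± 129), Il11ra1 (777), Cxcl14 (736) and Cxcl12 (604). Ccl9 (603.6) was all but level with Cxcl12. From Ccl8 to Ccl9 these levels lay within the SD of Ccl8 of each other, so their order is not resolved. Cxcl13 was at 216 per kilobase in Atf4WT iWAT at RT and 767 after cold, against 198 in cold Atf4AKO iWAT. Ccr7 and Cxcr5 were at 336 and 90.9 per kilobase in cold Atf4WT iWAT and at 8.12 and 1.74 in cold Atf4AKO iWAT.

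Within groups, lymphoid-linked members varied more than others. The median SD of log2 levels over the 3 replicates was 1.01 for lymphoid-linked members in the cold Atf4WT group and 0.53 to 0.69 in the other groups, against 0.29 to 0.48 for the other members and 0.16 to 0.17 for all tested genes.

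Downstream genes on 3 lists of the same pathways were counted alongside. For reading these counts, with cold 10.9% of all tested genes rose and 10.3% fell in Atf4WT iWAT and 8.92% fell in Atf4AKO iWAT, and 6.04% were lower in Atf4AKO iWAT after cold. Of 25 cytokine signal transducers (JAKs, STATs, SOCS proteins and the MyD88 route), 4 rose with cold in Atf4WT iWAT (Stat4, Ptpn6, Socs2 and Sigirr) and none fell, 2 fell in Atf4AKO iWAT, among them Stat4, and 5 were lower in Atf4AKO iWAT after cold. Stat4, which carries the IL-12 signal in T cells, had a log2 difference of 2.24 with cold in Atf4WT and -1.59 in Atf4AKO iWAT. Socs3, the feedback inhibitor of gp130, was lower in Atf4AKO iWAT after cold (-1.22). Of 15 genes of chemokine receptor signalling, 5 rose with cold in Atf4WT iWAT, 2 fell in Atf4AKO iWAT and 7 were lower in Atf4AKO iWAT after cold, among them Rgs1 (-2.36), Rac2 (-2.56) and Dock2 (-1.78), all leukocyte genes. Of 27 other cytokine and receptor genes 23 were tested, of which 4 rose and 4 fell with cold in Atf4WT iWAT, 7 fell in Atf4AKO iWAT and 6 were lower in Atf4AKO iWAT after cold. Ltb, which lymphocytes use to signal to lymph node stroma, was lower there by a log2 difference of -4.30, and Lif fell with cold in both genotypes (-1.22 in Atf4WT and -1.92 in Atf4AKO iWAT).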

How the data were processed

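Polyadenylated RNA of whole iWAT was sequenced in 12 libraries, 3 in each of 4 groups taken from the sample labels. Read filtering by the authors used SOAPnuke. STAR placed the reads on mm10, and featureCounts gave the uniquely placed reads of each gene, which were divided by DESeq2 size factors. Versions and strand setting are not given in the sources used here. The deposited values are thus a normalized signal (normalized counts) for 14159 genes, each with at least 1 read in each library, and 0 columns of other samples were present. Dividing by the value of 1 read gave whole reads for 100.0% of values (largest deviation 0.000313).

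Differences were tested in R 4.3.3 with limma 3.58.1 (eBayes with a trend after lmFit) on log2(normalized count + 1), over the 13404 genes that averaged 10 or more, with 4 group means and no covariates. A difference passed with a fold over 1.5 and p under 0.05, and Benjamini-Hochberg values were adjusted over all genes tested. The study's methods name DESeq2, which is run here on the recovered reads as an alternative (DESeq2 1.42.0, 2931 genes called with cold in Atf4WT, 2292 in Atf4AKO, 110 between genotypes at RT, 910 after cold and 669 for the interaction), as is edgeR 4.0.16 (2831, 2222, 138, 854 and 593). The labels call the samples of a group biological replicates and tie none to a named animal, so p-values measure the spread between these samples. Replicates differed by more than sampling noise (chi-square per degree of freedom 34.5 to 69.8). The scripts were tested on simulated data.

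The members, the lymphoid-linked list, the marker lists and the pathway lists were chosen with earlier results of these data known. Values in every library are given for Cxcl13, Ccr7, Cxcr5, Il1b and, in each role group, up to 3 tested members with the smallest p in any comparison. Il15ra, and the library values given for Il7r, Cx3cr1, Ccl8 and Ccl12, were added after their values were seen. Gene positions and exon lengths are from GENCODE vM21 (90 of 91 members matched), promoter sequences from RefSeq (GRCm38.p6). Figures were drawn with Python 3.11.15 and matplotlib 3.10.9. Alternatives were 2 count tools, the pseudocount, the filter, a rescaling of libraries, the groups in the fit, the replicate block, leaving out each library, a marker covariate and the adjusted threshold. Values of some genes are not reported here.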

Additional observations from a re-analysis of the deposited data

How the results depend on the processing

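Of the 109 calls of a member in a comparison, 109 kept direction and call with a pseudocount of 0.5 or without the filter, 107 with a pseudocount of 5, 107 with DESeq2, 105 with edgeR and 106 with libraries rescaled to the same 75th percentile; with a mean of at least 50, 90 of the 91 still tested did. Leaving out each library gave 24 to 41 members with cold in Atf4WT iWAT, 16 to 29 in Atf4AKO iWAT, 1 to 3 between genotypes at RT, 18 to 29 after cold and 15 to 25 for the interaction; the lowest counts of cold Atf4WT iWAT, of the genotypes after cold and of the interaction came without Atf4WT cold replicate 2. Between genotypes at RT, DESeq2 gave 3 members, the B and T cell covariate 2 and the adjusted threshold 0. With that threshold 0 members passed between genotypes after cold and for the interaction. With the B and T cell covariate the counts were 9 (cold in Atf4WT), 0 (genotypes after cold) and 2 (interaction). This covariate separated the Atf4WT cold libraries from the groups they were compared with, so the lower counts do not show what the differences come from. Leaving out Atf4WT cold replicates 1 and 2 together, chosen after seeing the data, left 1 library in that group. The median of the lymphoid-linked members was then 0.79, -0.93 and -1.22 in the same 3 comparisons. A macrophage marker covariate, also chosen then, gave 40, 27 and 22 members, and 18 with cold in Atf4AKO iWAT (6 higher and 12 lower). Of the 23 main calls with cold in Atf4AKO iWAT it kept 13. The median of the other members there was -0.21, against -0.60 in the main fit. The interaction needs all groups, so a fit of only the groups compared was not made for it.

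Same-numbered samples were compared for pairing. The correlations of their deviations from the group means ran from -0.189 to 0.389 over 18 pairs, with 9 over 0.1 and 3 under -0.1. All pairs of replicate 1 were positive (0.179 to 0.389). Replicate 1 also had the lowest mean log2 level of the macrophage markers in each group. The labels do not tie the numbers to a shared animal or batch, so the main fit did not pair the samples. What the replicate 1 libraries share was not tested. With the replicate block, 38 members passed with cold in Atf4WT, 28 in Atf4AKO, 2 between genotypes at RT, 28 after cold and 26 for the interaction. Shares of all tested genes are not given for the fits with a block, a covariate or a library left out. Their counts can only be set against those of the main fit.

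With the B and T cell covariate some members changed sign; the cause was not tested, and the covariate shares its libraries with the members. Between genotypes after cold, log2 differences became 0.17 (Ccl22), 0.77 (Cx3cr1), 0.13 (Cxcr3), 0.29 (Cxcr6), 0.57 (Il12rb1), 1.00 (Il18r1), 0.30 (Il21r), 0.0056 (Il2rb), 0.25 (Il2rg), 0.13 (Il4i1) and 0.68 (Il7r). With cold in Atf4WT iWAT they became -0.082 (Cxcr3), -0.16 (Cxcr6), -0.29 (Il12rb1), -0.031 (Il21r), -0.0066 (Il2ra), -0.27 (Il2rg) and -0.28 (Il4i1). For the interaction they became 0.31 (Cxcr5), 0.17 (Il12rb1), 0.91 (Il18r1), 0.10 (Il2rg), 0.55 (Il4i1) and 0.37 (Il7r). With 3 libraries a group and this spread among the lymphoid-linked members, small differences between genotypes could not be resolved, and members of a few reads per library, such as Il12b and Ccr9, carry counting error as well.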
